A study of Homo sapiens with 24 samples.

Results

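The genes described here encode the parts of RNase P and RNase MRP that were listed by symbol: the RNAs RPPH1 and RMRP, and the mRNAs of the protein subunits POP1, POP4, POP5, POP7, RPP14, RPP30, RPP38 and RPP40. These 10 genes were found by Ensembl identifier among the 61853 gene rows of a count table, and 10 of 10 passed the filter on low counts that left 18907 genes to test. RPPH1 and RMRP each had 1 further row with identical counts in every library, and each was counted once. RNase P is a ribonucleoprotein enzyme that removes the leader from the 5′ end of precursor tRNAs, and its catalytic core is the RNA made from RPPH1. RNase MRP is a related enzyme, built on the RNA made from RMRP, that cuts precursor ribosomal RNA. Most of the protein subunits are shared between the enzymes. Both RNAs are short transcripts of RNA polymerase III, whereas the subunits are made from ordinary mRNAs, so that the list holds finished structural RNAs beside messages that are translated.

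The cells were 293T, a line derived from human embryonic kidney. In every group DIS3, the catalytic subunit of the RNA exosome, had been knocked down with the short hairpin RNA DIS3-sh2. It was put back as wild-type DIS3 in one set of cells (WT) and as DIS3 with the D146N change in the other, so no group had unmanipulated DIS3. A sucrose density gradient was run on cytoplasmic material, and RNA of its fractions 3, 4, 7 and 8 was sequenced after depletion of ribosomal RNA. Each of the 8 groups of rescue and fraction held 3 libraries, described as biological replicates, 24 libraries in all. The end of the gradient at which numbering began is not given in the labels, nor what each fraction contained or how many clones the rescued cells came from. A difference between WT and D146N in the same numbered fraction and a difference in how the gradients were collected cannot be told apart.

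Library totals ran from 21150619 to 32989418 counts, and values are given as CPM, the counts of a gene scaled to the same library size. The totals include the second rows of RPPH1 and RMRP. The third WT library of fraction 8 stood apart from the others of its group. Per degree of freedom, the chi-square of its counts against the other 2 was 112.7 and 115.2, whereas all other pairs of libraries of 1 group gave 1.75 to 5.49. Results that it moves are given with and without it. The usual gene changed its share of the library between fractions as well. Fold changes below are scaled by TMM, which sets the typical gene near no change, and the same fold changes on plain library totals are given where they differ. On plain totals the median of all genes moved by -2.83 (log2) from WT fractions 3 and 4 to 7 and 8 and by 3.00 in D146N. A ratio of 2 genes within a library is free of this choice. DIS3 itself had 98.4 ± 12.0 CPM (SD, n = 3) in WT fraction 3 and 4.93 ± 0.359 in WT fraction 7, against 8.59 ± 0.944 and 101.0 ± 13.9 in the same fractions of D146N. That row does not separate the rescue from the endogenous gene. Of the markers of the 293T lineage, LIN28B had 2.70 to 34.6 CPM, while NEFM and PAX2 stayed at or under 3.11 CPM. The leukocyte genes CD3E and PTPRC were at 0 in 24 and 23 libraries, and the erythroid genes HBA1, HBA2 and HBB summed to at most 2.78 CPM. The fibroblast markers, of which DCN was at 0 in 18 libraries, summed to 5.58 to 10.4 CPM in WT fractions 3 and 4, 0.274 to 0.529 in WT fractions 7 and 8, and in D146N to 0.308 to 0.731 and 9.66 to 11.1. The nuclear RNAs MALAT1 and NEAT1 summed to 2418 to 2619 CPM in WT fractions 3 and 4 and 90.0 to 121.3 in WT fractions 7 and 8, and in D146N to 167.6 to 190.2 and 2147 to 2395. Their part in the results below was not tested.

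RPPH1 (ENSG00000277209.1; RefSeq GRCh38.p14 chromosome 14, 20343071 to 20343411, a single exon of 341 bases that is the RNase P RNA) was present at 2 main levels. In WT it had 5730, 5855 and 5574 CPM in the 3 libraries of fraction 3 and 5819, 5802 and 5710 in fraction 4. In WT fraction 7 it had 134919, 133806 and 133624 CPM and in fraction 8 it had 130778, 131653 and 114843, the last being the library that stood apart. The D146N libraries held these levels under the other fraction numbers. They had 141759, 137638 and 143278 CPM in fraction 3 and 140084, 139698 and 143181 in fraction 4. In D146N fraction 7 they had 5601, 5859 and 5942 CPM and in fraction 8 they had 5967, 6099 and 6097. No library fell between 6099 and 114843 CPM. The 1 RPPH1 row used here thus made up 12.6% to 14.1% of counts, as group means, in WT fractions 7 and 8 and D146N fractions 3 and 4. It made up 0.572% to 0.605% in the other 4 groups. The identical second row is in the totals but not in these shares. How reads were assigned to such rows is not given, so the share of the RNA itself is uncertain. In the order of the group means, WT fraction 3, WT fraction 4 and D146N fraction 7 were lowest, and each overlapped the next. D146N fraction 8 lay above D146N fraction 7 without overlap, and WT fraction 7 lay above WT fraction 8 without overlap. At the top the libraries of D146N fractions 3 and 4 overlapped each other, and all lay above every library of WT fractions 7 and 8. After TMM the libraries of these fraction pairs overlapped.

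RMRP (ENSG00000277027.1; chromosome 9, 35657750 to 35658019, a single exon of 270 bases that is the RNase MRP RNA) followed the same division but over a smaller span. WT libraries had 7507, 7322 and 7098 CPM in fraction 3 and 7309, 6851 and 6988 in fraction 4. They had 31596, 30299 and 32793 CPM in WT fraction 7 and 32632, 32199 and 38503 in fraction 8. In D146N the values were 17956, 16557 and 17751 CPM in fraction 3 and 16196, 19022 and 20138 in fraction 4. D146N fraction 7 had 6010, 5853 and 5861 CPM and fraction 8 had 5799, 5777 and 5682. RMRP also had 2 separate high levels, but in the reverse order to RPPH1. Every library of WT fractions 7 and 8 lay above every library of D146N fractions 3 and 4, and these lay above all the others. D146N fractions 7 and 8 were lowest, with no library as high as those of WT fractions 3 and 4.

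**Figure D1:**
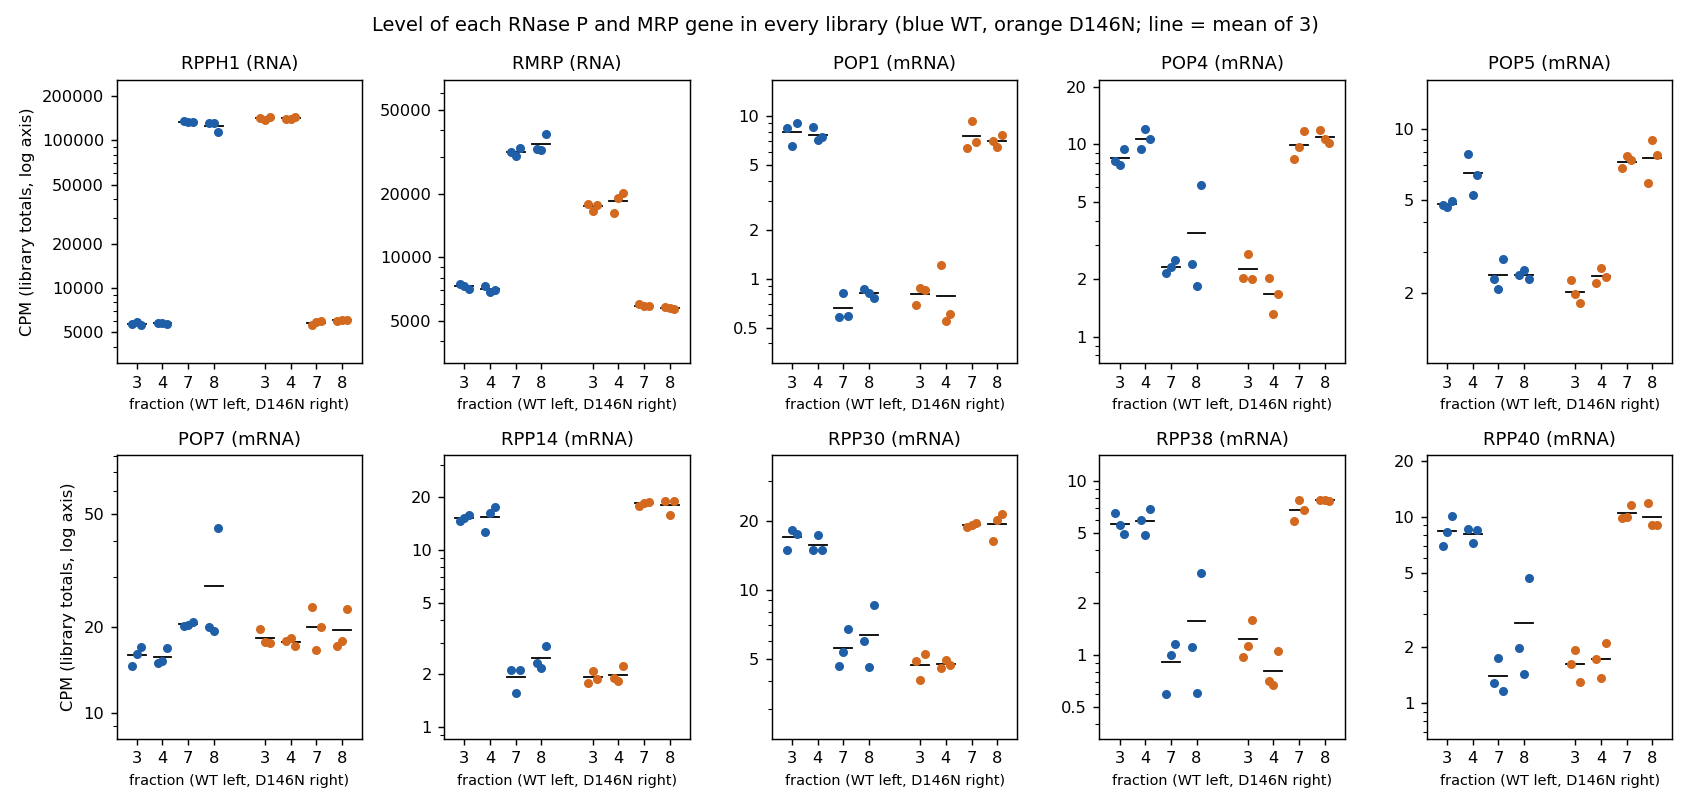
Each panel plots the CPM of 1 gene on a log axis in every library (points) of the 8 groups, with WT fractions 3, 4, 7 and 8 on the left in blue, the same D146N fractions on the right in orange, and the mean of 3 as a line. RPPH1 and RMRP are high in WT fractions 7 and 8 and D146N fractions 3 and 4, while 7 of the 8 mRNAs are low there and POP7 lies between 14.7 and 44.5 CPM throughout.

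Between fractions, RPPH1 rose by 7.20 ± 0.12 (log2 fold change and SE, TMM) from WT fractions 3 and 4 to 7 and 8 (edgeR adjusted p = 5.6e-33) and fell by 7.50 ± 0.13 in D146N (adjusted p = 3.2e-33). On library totals these were 4.50 and -4.57. RMRP rose by 4.88 ± 0.09 in WT (adjusted p = 7.4e-32) and fell by 4.55 ± 0.09 in D146N (adjusted p = 4.2e-31), or 2.20 and -1.62 on library totals. The direction of both RNAs was thus the same under either scaling. Among the 18907 genes, RPPH1 stood at percentile 99.97 in WT and 0.02 in D146N, and RMRP at 98.75 and 1.18. Without the WT library that stood apart, the WT values were 7.28 for RPPH1 and 4.91 for RMRP. The values are relative to the other reads of a gradient fraction. Where an RNA lies along the gradient and how much of it the cells hold cannot be told apart. Counting error is small for both, with at least 121887 and 124158 counts per library (a counting error of 0.286% and 0.284%). Pseudogene copies took few reads: RPPH1-3P had 15 counts over 24 libraries, and RPPH1-2P and RMRPP5 had none.

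The ratio of the 2 RNAs within a library showed that they did not move by equal amounts. For each RMRP read there were 0.783 ± 0.018 RPPH1 reads (SD, n = 3) in WT fraction 3 and 0.820 ± 0.025 in WT fraction 4. The ratio was 4.25 ± 0.171 in WT fraction 7 and 3.69 ± 0.617 in WT fraction 8, where the 3 libraries had 4.01, 4.09 and 2.98. In D146N it was 8.09 ± 0.210 in fraction 3 and 7.70 ± 0.829 in fraction 4, then 0.982 ± 0.044 in fraction 7 and 1.05 ± 0.022 in fraction 8. Per kilobase of RNA the ratio was 0.620 in WT fraction 3 and 3.37 in WT fraction 7, against 6.41 and 0.778 in D146N. RMRP was therefore the more abundant RNA per length in the 4 groups with little of both, and RPPH1 in the other 4.

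D146N and WT did not overlap in this ratio in any of the 4 fractions. The log2 ratio was higher in D146N by 3.37 in fraction 3 and by 3.23 in fraction 4. It was lower there in fraction 7, with a difference of -2.11, and in fraction 8, with a difference of -1.80. Each of the 4 exact two-sided permutation tests gave p = 0.1 (0.1 after adjustment over the 4), the smallest that 3 libraries against 3 can give. Without the WT library that stood apart, the mean log2 ratio of WT fraction 8 was 2.02 instead of 1.87. From fractions 3 and 4 to 7 and 8, the mean log2 ratio changed by 2.3 in WT and by -2.95 in D146N, a difference of -5.25. An exact permutation test of this difference, over sets of libraries with the same replicate number, gave p = 0.1, again the smallest possible.

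**Figure D2:**
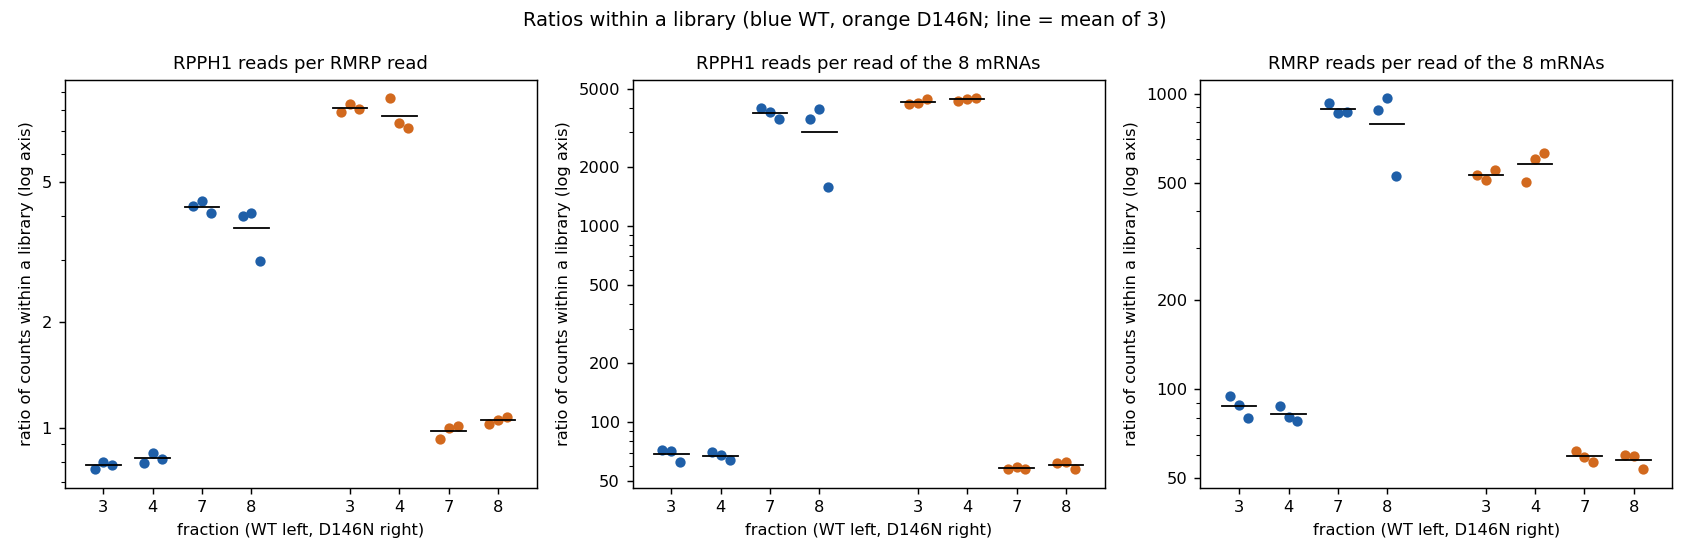
The 3 panels plot, on log axes, the counts of RPPH1 per count of RMRP, of RPPH1 per count of the 8 mRNAs summed, and of RMRP per count of the 8 mRNAs summed, for each library (points) with the mean of 3 (line), WT in blue and D146N in orange. RPPH1 per RMRP is 2.98 to 4.42 in WT fractions 7 and 8 and 7.11 to 8.65 in D146N fractions 3 and 4, and 0.763 to 1.07 in the other groups.

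Among the protein subunits, POP7 (also called RPP20, a small protein that pairs with RPP25 on the RNA) was the mRNA with the largest fold change. The WT libraries had 14.7, 16.2 and 17.1 CPM in fraction 3, 15, 15.3 and 17 in fraction 4, 20.2, 20.4 and 20.8 in fraction 7, and 20.1, 19.4 and 44.5 in fraction 8, the last again in the library that stood apart. The D146N libraries had 19.7, 17.8 and 17.6 CPM in fraction 3, 17.9, 18.3 and 17.3 in fraction 4, 23.5, 16.7 and 20 in fraction 7, and 17.3, 18 and 23.3 in fraction 8. The group means of POP7 ran from 15.8 to 28.0 CPM, and from WT fractions 3 and 4 to 7 and 8 its libraries moved up without overlap, while those of the other 7 mRNAs moved down. Relative to the typical gene it rose by 3.24 ± 0.11 in WT fractions 7 and 8 (adjusted p = 3.7e-20; 3.09 without the library that stood apart) and fell by 2.79 ± 0.11 in D146N (adjusted p = 1.8e-18). On library totals the values were 0.59 (adjusted p = 0.0017) and 0.13 (adjusted p = 0.43). The 0.59 includes the 44.5 CPM of the library that stood apart, and no fit on library totals was run without it. POP7 ranked at percentile 92.57 of all genes in WT and 7.49 in D146N.

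POP5 and RPP14 encode small proteins that form a pair in the enzyme, and their mRNAs differed. In WT, POP5 had 4.75, 4.67 and 4.92 CPM in fraction 3, 7.84, 5.25 and 6.36 in fraction 4, 2.28, 2.08 and 2.80 in fraction 7 and 2.39, 2.49 and 2.29 in fraction 8. It had 1.81 to 2.56 CPM in the 6 D146N libraries of fractions 3 and 4 and 5.90 to 9.01 in those of fractions 7 and 8. RPP14 had 12.6 to 17.6 CPM in WT fractions 3 and 4 and 1.55 to 2.89 in WT fractions 7 and 8, and in D146N 1.78 to 2.21 and 15.8 to 19.0. The drop in share was larger for RPP14, with no overlap between the fraction pairs for either gene. Under TMM, POP5 rose by 1.47 ± 0.13 in WT (adjusted p = 3.7e-12) and fell by 1.16 ± 0.14 in D146N (adjusted p = 3.2e-09), at percentiles 78.49 and 20.60. RPP14 had -0.14 ± 0.10 in WT (adjusted p = 0.23) and rose by 0.29 ± 0.11 in D146N (adjusted p = 0.020), at percentiles 51.13 and 59.97, near the middle of all genes. Its WT value was called lower in 11 of the 24 fits that each left out 1 library (-0.32 to -0.08). RPP14 shares its annotated span with HTD2, and the HTD2 row held 60.8% to 83.6% as many counts as RPP14, and how reads in the shared span were assigned is not given in the sources used here.

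RPP30, a subunit with a barrel-like fold, had 14.9 to 18.3 CPM in WT fractions 3 and 4, 4.57 to 8.56 in WT fractions 7 and 8, 4.02 to 5.24 in D146N fractions 3 and 4 and 16.4 to 21.5 in D146N fractions 7 and 8. It rose by 1.21 ± 0.09 in WT (adjusted p = 3.5e-14) and fell by 0.89 ± 0.10 in D146N (adjusted p = 4.3e-10) relative to the typical gene. On library totals it went the other way, by -1.45 and 2.03. POP4 (also called RPP29), which contacts the RNA, had 7.79 to 12.1 CPM in WT fractions 3 and 4. In WT fraction 7 it had 2.13, 2.3 and 2.5 CPM, and in fraction 8 it had 2.39, 1.83 and 6.15. It rose by 0.89 ± 0.14 in WT (adjusted p = 1.1e-06; 0.63 without the library that stood apart) and fell by 0.51 ± 0.15 in D146N (adjusted p = 0.0052), against -1.75 and 2.42 on library totals. The D146N call was lost in 11 of the 24 fits that each left out 1 library, and was nearest to 0, at -0.30 (adjusted p = 0.12), without the first D146N library of fraction 7.

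POP1, the largest of the subunits and a scaffold of both enzymes, was the 1 mRNA called lower than the typical gene in WT fractions 7 and 8. It had 8.42, 6.53 and 9.11 CPM in WT fraction 3, 8.51, 7.09 and 7.41 in fraction 4, 0.579, 0.819 and 0.593 in fraction 7 and 0.861, 0.821 and 0.758 in fraction 8. In D146N it had 0.689, 0.877 and 0.847 CPM in fraction 3, 1.21, 0.545 and 0.605 in fraction 4, 6.34, 9.29 and 6.95 in fraction 7 and 6.98, 6.43 and 7.65 in fraction 8. The fold change was -0.74 ± 0.17 in WT (adjusted p = 0.00024; -3.41 on library totals) and 0.25 ± 0.18 in D146N (adjusted p = 0.22; 3.17 on library totals). The D146N value was called higher in 11 of the 24 fits that each left out 1 library (0.18 to 0.50). POP1 had as few as 13 counts in a library, a counting error of 27.7%.

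RPP38, which belongs to a family of proteins that bind kinked RNA helices, and RPP40 had fewer reads and less certain fold changes. RPP38 had 4.87 to 6.91 CPM in WT fractions 3 and 4 and 0.595, 0.995, 1.15, 1.12, 0.608 and 2.97 CPM in the libraries of WT fractions 7 and 8, the last in the library that stood apart. Its fold change was 0.36 ± 0.19 in WT (adjusted p = 0.091, and 0.03 without that library) and -0.07 ± 0.20 in D146N (adjusted p = 0.80). The WT value was called higher with median-of-ratios factors (0.45, adjusted p = 0.035) and with DESeq2 (0.44, adjusted p = 0.044). It was also called in 2 of the 24 fits that each left out 1 library. RPP40 had 6.97 to 10.1 CPM in WT fractions 3 and 4 and 1.29, 1.74, 1.16, 1.98, 1.43 and 4.72 CPM in WT fractions 7 and 8. It rose by 0.56 ± 0.15 in WT (adjusted p = 0.0016), and by 0.32 (adjusted p = 0.041) without the library that stood apart, and had -0.31 ± 0.16 in D146N (adjusted p = 0.092). The RPP40 locus overlaps LYRM4-AS1, and whether the counting used strand is not given in the sources used here. In the library that stood apart, POP7, POP4, RPP38 and RPP40 had 2.25, 2.91, 3.45 and 2.77 times the mean of the other 2 libraries, whereas POP1, POP5 and RPPH1 had 0.901, 0.940 and 0.875 times.

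The make-up of the reads on the 8 mRNAs, which no scaling changes, shows the same ordering. POP7 took 19.1% ± 0.553 (SD, n = 3) of them in WT fraction 3 and 18.4% ± 0.577 in fraction 4, but 57.5% ± 2.37 and 57.8% ± 3.50 in fractions 7 and 8. The D146N shares were 55.8% ± 1.99, 55.9% ± 2.02, 20.2% ± 3.67 and 19.5% ± 2.24 in the same order. Between fractions 3 and 7, the share of POP1 went from 9.61% ± 1.47 to 1.87% ± 0.404 in WT and from 2.45% ± 0.367 to 7.56% ± 1.60 in D146N. That of RPP14 went from 18.1% ± 0.438 to 5.40% ± 0.928 in WT and from 5.81% ± 0.576 to 18.4% ± 0.322 in D146N. POP5 kept between 5.69% and 7.58% in the group means. From WT fraction 3 to 7 the mean share also went from 10.1% to 3.94% for RPP40, from 6.86% to 2.54% for RPP38, from 10.2% to 6.48% for POP4 and from 20.3% to 15.5% for RPP30.

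**Figure D3:**
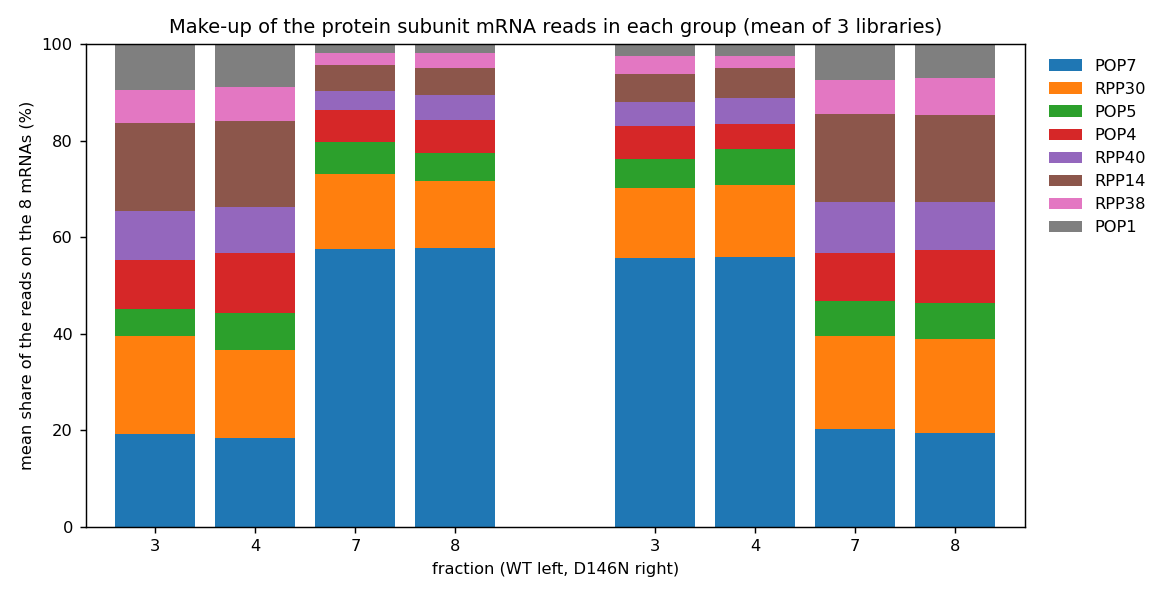
Stacked bars give the mean share (%) of the reads on the 8 protein subunit mRNAs that fell on each mRNA in the 8 groups, as means of 3 libraries without error bars. POP7 makes up 55.8% to 57.8% in WT fractions 7 and 8 and D146N fractions 3 and 4, and 18.4% to 20.2% in the other groups.

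Set against these mRNAs, the RNAs differed most between fractions. Each RNA enters by 1 row, without its identical second row, so the size of these ratios depends on how reads were assigned to such rows. For each read on the 8 mRNAs together there were 68.7 ± 5.28 RPPH1 reads (SD, n = 3) in WT fraction 3 and 67.4 ± 3.19 in WT fraction 4. There were 3770 ± 228 in fraction 7 of WT, and 3016 ± 1264 in its fraction 8. The 3 libraries of WT fraction 8 had 3527, 3945 and 1577. The corresponding D146N values were 4286 ± 142, 4423 ± 65.3, 58.2 ± 0.928 and 60.7 ± 2.76. The RMRP reads per mRNA read were 87.9 ± 7.60, 82.3 ± 5.21, 886 ± 39.9 and 791 ± 231 in the 4 WT fractions and 530 ± 20.7, 579 ± 67.0, 59.3 ± 2.36 and 57.7 ± 3.48 in D146N. The log2 fold change of RPPH1 between the WT fraction pairs exceeded that of POP1 by 7.93 and that of POP7 by 3.96, and that of RMRP exceeded them by 5.62 and 1.64. In D146N the corresponding differences were -7.75 and -4.70 for RPPH1, and -4.80 and -1.75 for RMRP. POP7 was thus the mRNA nearest to the RNAs in both.

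Of the 10 genes, 7 were called higher and 1 lower in WT fractions 7 and 8 than in 3 and 4, where 73.9% of all tested genes were called (34.6% higher and 39.3% lower). The median log2 fold change of the 10 was 1.05, beside -0.18 for all genes. In D146N, 1 was called higher and 6 lower, beside 60.2% of all genes (29.9% higher and 30.3% lower), with medians of -0.70 and 0.10. On library totals the count became 3 higher and 7 lower in WT, where 91.3% of all genes were called (7.65% higher and 83.6% lower), and 7 higher and 2 lower in D146N, where 92.9% were called (88.9% higher and 4.08% lower). RPPH1 and RMRP were called in the same direction under both scalings. POP7 was called higher in WT under both, while POP4, POP5, RPP30, RPP38 and RPP40 changed sign in both rescues and POP7 in D146N. After TMM the libraries of the fraction pairs did not overlap for 7 of the 10 genes in WT (55.1% of all genes) and 5 in D146N (43.1%). On library totals they did not overlap for 10 in WT (78.8% of all genes) and 9 in D146N (84.0%), POP7 being the exception.

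**Figure D4:**
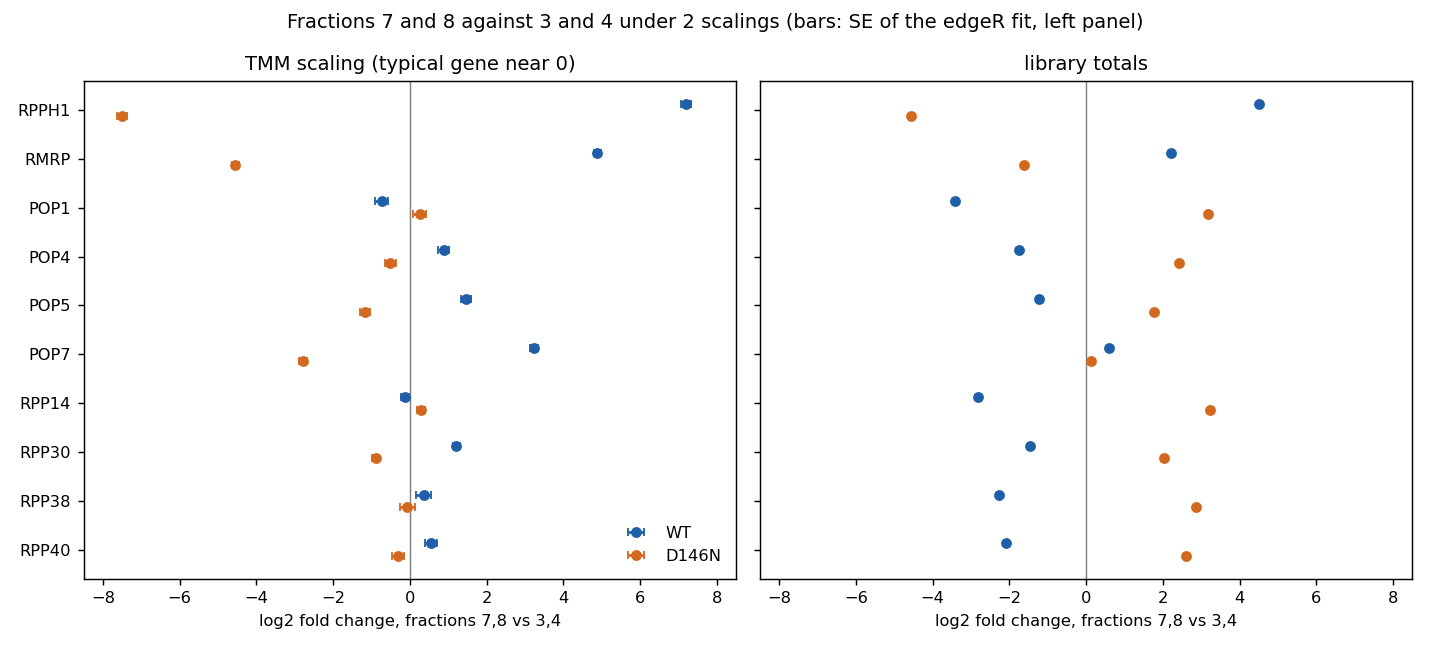
Log2 fold changes of fractions 7 and 8 over 3 and 4 for the 10 genes in WT (blue) and D146N (orange), scaled by TMM in the left panel, with the SE of the fit as bars, and by library totals in the right panel. RPPH1 and RMRP keep their side of 0 in both panels, whereas POP4, POP5, RPP30, RPP38 and RPP40 change sides in both rescues and POP7 does in D146N.

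The same fold changes can be read as D146N against WT within 1 numbered fraction. In fraction 3, RPPH1 was higher in D146N by 7.40 ± 0.18 (adjusted p = 6e-28), RMRP by 4.03 ± 0.13 (adjusted p = 7.9e-25) and POP7 by 2.98 ± 0.15 (adjusted p = 2.2e-15). In total 6 of the 10 were called higher and 0 lower, beside 49.7% of all genes (25.8% higher and 23.9% lower), and POP1, RPP14, RPP38 and RPP40 were not called. Their log2 fold changes were -0.53, -0.21, 0.57 and 0.40. In fraction 4, 5 were called higher and 0 lower, beside 48.5% of all genes (25.7% higher and 22.8% lower), and RPPH1 and RMRP had 7.39 and 4.17. POP4, called in fraction 3 with 0.87, had 0.10 ± 0.22 in fraction 4 (adjusted p = 0.74). On library totals 2 of the 10, the RNAs, were called higher and 7 lower in fractions 3 and 4 alike, beside 88.6% of all genes (3.9% higher and 84.7% lower) and 88.1% (3.78% and 84.3%). The libraries did not overlap after TMM for 9 of the 10 in fraction 3 (59.6% of all genes) and 6 in fraction 4 (57.7%), and on library totals for 10 of 10 in each (89.0% and 87.9%).

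In fraction 7 the RNAs were lower in D146N, RPPH1 by a log2 fold change of -7.48 ± 0.18 and RMRP by -5.37 ± 0.14. There 1 of the 10 was called higher and 6 lower, beside 63.5% of all genes (32.4% higher and 31.1% lower). The 1 called higher was POP1, with 0.56 ± 0.25 and an adjusted p of 0.049, a call lost under median-of-ratios scaling, DESeq2, unrounded values, the replicate block and with identical rows dropped. In fraction 8, 0 were called higher and 7 lower, beside 65.1% of all genes (32.5% higher and 32.6% lower). RPPH1 had -7.12 ± 0.18 there and RMRP had -5.30 ± 0.14. RPP40 was called with -0.77 ± 0.21 (adjusted p = 0.0015), but had -0.31 (adjusted p = 0.21) without the WT library that stood apart. POP4 had -0.98 ± 0.20 with that library and -0.49 (adjusted p = 0.022) without it. On library totals 7 were called higher and 2 lower in fraction 7, and 7 higher and 3 lower in fraction 8, beside 89.0% of all genes (83.6% higher and 5.4% lower) and 87.0% (80.9% and 6.08%). The libraries did not overlap after TMM for 8 of the 10 in fraction 7 (70.8% of all genes) and 7 in fraction 8 (68.1%), and on library totals for 9 in each (89.4% and 86.0%).

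The difference between the fraction changes of D146N and WT was tested directly. It was called for 9 of the 10, 2 with a positive and 7 with a negative difference, beside 77.1% of all genes (41.7% positive and 35.4% negative). RPPH1 had -14.70 ± 0.18, RMRP had -9.43 ± 0.13 and POP7 had -6.04 ± 0.15. The positive differences were those of POP1, 0.99 ± 0.25 (adjusted p = 0.0005), and RPP14, 0.43 ± 0.15 (adjusted p = 0.010). RPP38 had -0.43 ± 0.28 (adjusted p = 0.16), and -0.081 without the WT library that stood apart. RPP40 had -0.87 ± 0.22 (adjusted p = 0.00067), and -0.62 without that library. Leaving out 1 library at a time gave -0.95 to -0.55 for RPP40, the value nearest to 0 without the first WT library of fraction 3, and 0.39 to 0.77 for RPP14. On library totals the split was 7 positive and 2 negative, beside 94.5% of all genes (88.1% positive and 6.41% negative).

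Because the levels of D146N fractions 7 and 8 lay near those of WT fractions 3 and 4, and the reverse, these unlike labels were also compared. They share their libraries with the comparisons above. Between D146N fractions 7 and 8 and WT fractions 3 and 4, 0 of the 10 were called higher and 1 lower, beside 17.3% of all genes (6.9% higher and 10.4% lower). The 1 was RMRP, with -0.45 ± 0.08 (adjusted p = 8.5e-05; -0.30 on library totals), and it was the only 1 of the 10 whose libraries did not overlap, after TMM (12.7% of all genes) or on library totals (16.9%). RPPH1 had -0.10 ± 0.09 (adjusted p = 0.51; 0.04 on library totals). Without the WT library that stood apart, which takes no part in this contrast but adds to the estimate of spread, RPPH1 kept -0.10 and its adjusted p became 0.00048. The 8 mRNAs had values between -0.26 (POP1) and 0.26 (POP5).

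Between D146N fractions 3 and 4 and WT fractions 7 and 8, 0 were called higher and 2 lower, beside 29.2% of all genes (17.1% higher and 12.1% lower). RMRP fell by 0.78 ± 0.08 (adjusted p = 1.3e-09; -0.88 on library totals and -0.82 without the library that stood apart). RPPH1 had 0.20 ± 0.09 (adjusted p = 0.12), and without that library 0.10 with an adjusted p of 0.00066. POP7 had -0.27 ± 0.10 (adjusted p = 0.042), a call lost on library totals (adjusted p = 0.062) and in 21 of the 24 fits that each left out 1 library, with values of -0.33 to -0.14. The lower RMRP beside a similar RPPH1 is the same contrast seen in the ratio of the RNAs, which was 7.11 to 8.65 in D146N fractions 3 and 4 and 2.98 to 4.42 in WT fractions 7 and 8. On library totals 1 was called higher and 1 lower in the first of these comparisons, beside 22.1% of all genes (16.8% higher and 5.29% lower). In the second 1 was called higher and 2 lower, beside 27.0% (12.0% higher and 15.0% lower). The libraries of the second did not overlap for RMRP after TMM (12.6% of all genes), and for RMRP and RPPH1 on library totals (13.5%).

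**Figure D5:**
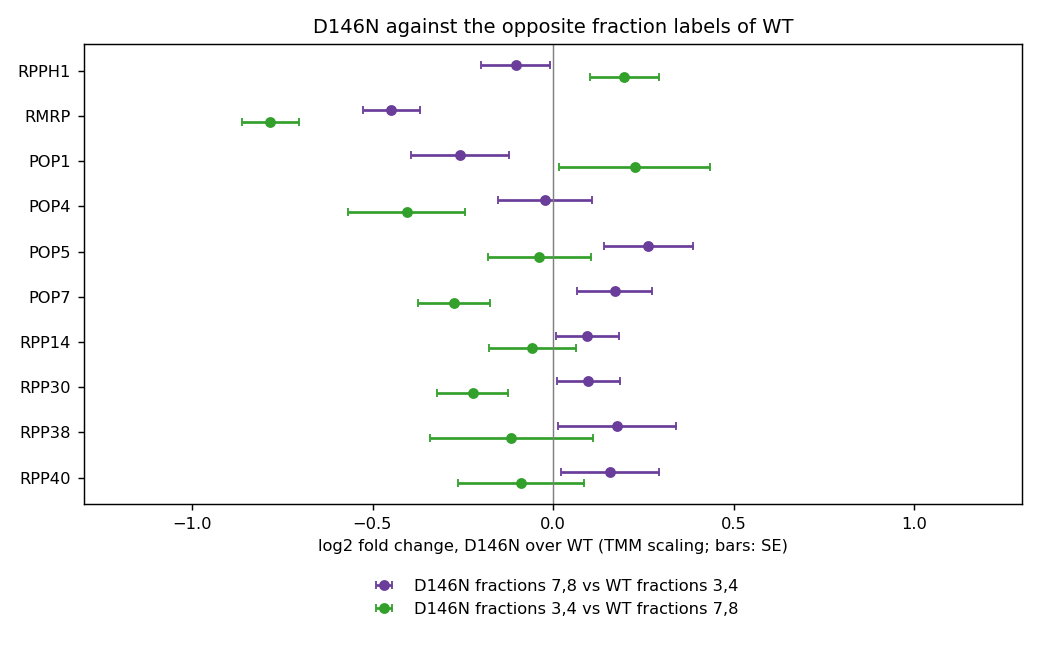
Log2 fold changes (TMM; bars are the SE of the fit) of the 10 genes for D146N fractions 7 and 8 over WT fractions 3 and 4 (purple) and D146N fractions 3 and 4 over WT fractions 7 and 8 (green). RMRP lies at -0.45 and -0.78, while the other 9 genes lie between -0.41 and 0.26.

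The upstream sequences of the mRNA genes are shown for POP7, the mRNA that differed most from the typical gene, and RPP38. In the main fit RPP38 was not called between fractions in either rescue. The RefSeq promoter table of GRCh38.p14 matched 7 of the 10 genes, the others being RPPH1, RMRP and POP1. The 250 bases before the annotated start of POP7 lie on the + strand at chr7:100705871-100706120 and those of RPP38 on the + strand at chr10:15097105-15097354. Capitals mark matches, on either strand, to GGGCGG, to CCGGAAG, to TATAAA, to CCAAT or to the NRF1 motif.
POP7: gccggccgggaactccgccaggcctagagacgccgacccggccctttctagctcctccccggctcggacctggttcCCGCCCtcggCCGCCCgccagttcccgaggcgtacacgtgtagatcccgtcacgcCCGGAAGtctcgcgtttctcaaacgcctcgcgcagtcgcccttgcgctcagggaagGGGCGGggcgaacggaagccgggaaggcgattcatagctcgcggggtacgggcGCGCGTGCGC
RPP38: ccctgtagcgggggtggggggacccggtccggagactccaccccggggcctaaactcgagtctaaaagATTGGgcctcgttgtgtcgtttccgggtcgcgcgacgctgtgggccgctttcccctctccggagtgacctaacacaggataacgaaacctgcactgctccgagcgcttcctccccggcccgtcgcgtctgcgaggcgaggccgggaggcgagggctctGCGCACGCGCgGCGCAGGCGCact
POP7 has 3 matches to GGGCGG, 1 to CCGGAAG and 1 to the NRF1 motif, and RPP38 has 1 to CCAAT and 2 to the NRF1 motif. Of 35116 promoters in the same window, 42.6% held GGGCGG, 8.52% CCGGAAG, 10.7% TATAAA, 32.0% CCAAT and 5.07% the NRF1 motif. A match is a description of letters and not of binding.

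Across the 24 libraries the genes most like RPPH1, by the Pearson correlation of log2(TMM-scaled CPM + 1) among 3963 genes with a mean of at least 10 CPM, were EIF1 (r = 0.9996), RPL18 (0.9993), RPL10A (0.9993), RPL29 (0.9992) and the pseudogene RPS7P1 (0.9992). EIF1 encodes a translation initiation factor, and RPL18, RPL10A and RPL29 encode proteins of the large ribosomal subunit. The genes most like RMRP were RPS27P3 (0.9982), RPS14 (0.9979), RPS27P4 (0.9979), RPS28P7 (0.9978) and RPL37A (0.9977), with RPS14 and RPL37A encoding ribosomal proteins and the rest being pseudogenes that can share reads with their parents. The fold change of EIF1 between the WT fraction pairs was 3.49, well under the 7.20 of RPPH1. These correlations rest on the same 8 groups, in 2 main levels, and describe shape and not size. Among the subunits, the correlation with RPPH1 was 0.9884 for RMRP, 0.9861 for POP7, 0.9483 for RPP30 and 0.9451 for POP5, and it was 0.6984 for POP4, 0.5165 for RPP40 and 0.1663 for RPP38. RPP14 and POP1 had -0.6057 and -0.6668. These correlations are of TMM-scaled values only. On library totals POP4, POP5, RPP30, RPP38 and RPP40 changed between fractions in the direction opposite to RPPH1 in both rescues.

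The 3 further subunit genes were RPP21, a subunit of RNase P, RPP25, the partner of POP7, and RPP25L, a paralog of RPP25. RPP21 had 5.84 to 7.84 CPM in WT fractions 3 and 4 and 4.47 to 7.09 in WT fractions 7 and 8, the 4.47 in the library that stood apart. It rose by 2.63 ± 0.12 in WT relative to the typical gene (adjusted p = 3.1e-20, and -0.07 on library totals). In D146N it fell by 1.89 ± 0.13 (adjusted p = 2.6e-15, and 1.04 on library totals). RPP25L rose by 2.11 ± 0.19 in WT (adjusted p = 1.1e-09, and -0.52 on library totals) and fell by 1.65 ± 0.20 in D146N (adjusted p = 1.8e-07, and 1.27). In WT fraction 8, RPP25L had 2.66, 3.04 and 9.69 CPM, the last in the library that stood apart. Leaving out 1 library at a time gave RPP25L 1.81 to 2.21 in WT. RPP25 went the other way, with -0.91 ± 0.17 in WT (adjusted p = 1.7e-05; -3.58) and 0.55 ± 0.17 in D146N (adjusted p = 0.0066; 3.47). POP7 and its partner RPP25 thus lay on opposite sides of the typical gene in both rescues, POP7 at percentile 92.57 and RPP25 at 25.90 in WT. The annotated span of RPP21 overlaps the read-through gene TRIM39-RPP21, and the RPP21 row held 77.2% to 100.3% as many counts. How reads in the overlap were assigned is not given in the sources used here.

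Neighbouring steps of tRNA processing were counted in the fraction contrast of WT, where 34.6% of all genes rose and 39.3% fell after TMM. Of the 3 genes of mitochondrial RNase P, a protein enzyme without an RNA part, 1 rose (HSD17B10, 1.05 ± 0.20, adjusted p = 0.00015; 0.65 without the library that stood apart) and 1 fell (TRMT10C, -1.10 ± 0.14, adjusted p = 1.4e-08). Of the 4 genes of other tRNA end processing, 2 rose, among them ELAC1 (2.39 ± 0.19), a tRNA 3′ endonuclease, and 2 fell, among them SSB (-1.05 ± 0.09), the La protein that binds the 3′ ends of polymerase III transcripts. Of 10 tRNA splicing genes, 4 rose and 5 fell. The 23 genes for transcription of RPPH1 and RMRP, subunits and factors of RNA polymerase III, held 8 that rose and 12 that fell, with a median of -0.30 beside -0.18 for all genes. In D146N the same 4 lists held 0 and 0, 2 and 2, 4 and 3, and 9 and 6 that rose and fell, beside 29.9% and 30.3% of all genes. The direction of many of these depends on the scaling, since on library totals no gene of the 4 lists rose in WT and none fell in D146N.

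Other RNAs made by RNA polymerase III were counted in the same way. Of 17 listed, 15 were tested, of which 7 rose and 7 fell in WT fractions 7 and 8 after TMM, beside 34.6% and 39.3% of all genes. On library totals 1 rose and 14 fell, beside 7.65% and 83.6%. RN7SK, an abundant small nuclear RNA that restrains transcription elongation, averaged 19544 CPM in WT fractions 3 and 4, 41934 in WT fractions 7 and 8, 70967 in D146N fractions 3 and 4 and 20492 in D146N fractions 7 and 8. It rose by 3.81 ± 0.11 in WT (adjusted p = 2.9e-26) and fell by 4.72 ± 0.12 in D146N (adjusted p = 2.1e-28), with the same direction on library totals (1.10 and -1.79). RNU6-7, a U6 small nuclear RNA gene, fell by 2.46 ± 0.13 in WT (adjusted p = 4e-19) and had -0.00 ± 0.11 in D146N (adjusted p = 0.98). In D146N, 1 of the 15 rose and 9 fell after TMM, beside 29.9% and 30.3% of all genes, whereas 13 rose and 1 fell on library totals, beside 88.9% and 4.08%.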

How the data were processed

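For 24 libraries, RNA sequencing gave expected counts per gene, deposited by the authors as 1 table that was not normalized. Of the nonzero values, 73.3% were whole within 0.005, so they were rounded, although whole counts had been assumed when the test was chosen. Tools listed in the submitters' processing notes, without roles, are featureCounts 1.5.1, SAMtools, HISAT2 2.1.0 and Bowtie2 2.3.5, and the build is hg38. Genes passing edgeR's filter by group were fitted with edgeR 4.0.16 (R 4.3.3) quasi-likelihood models, robust, TMM-scaled, with 8 group means. Every adjusted p in the text is Benjamini-Hochberg adjusted over the 18907 genes from this fit, unless another setting is named, and genes under 0.05 are called. The fit was also run on simulated data in which most genes kept 1 mean in all groups. That run did not test the scaling where many genes change, as they do here. The ratio of RPPH1 to RMRP used exact permutation tests over libraries. For the change of that ratio between fractions, the test was over sets of libraries with the same replicate number. The ratios of the RNAs to the mRNAs and the shares of the mRNA reads are given as values without a test. The genes and lists were chosen with earlier results of these data known. All listed RNase P and MRP genes were named, the 5 genes most like each RNA, and, from the lists of mitochondrial RNase P, tRNA end processing and other polymerase III RNAs, the called gene with the smallest adjusted p in each direction of the WT fraction contrast (the rule allowed up to 3). Alternatives were library totals, median-of-ratios factors, no filter, unrounded values, identical rows dropped, a replicate block, DESeq2 1.42.0 and leaving out each library.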

Additional observations from a re-analysis of the deposited data

Results flagged for a closer look

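For the following genes the change from fractions 3 and 4 to fractions 7 and 8 differed between D146N and WT by a test of that difference itself (log2, D146N minus WT, edgeR, TMM). Among the RNAs and subunit mRNAs it was -14.70 for RPPH1, -9.43 for RMRP, -6.04 for POP7, -2.63 for POP5, -2.10 for RPP30, -1.39 for POP4, -0.87 for RPP40, 0.43 for RPP14 and 0.99 for POP1. The further subunits had -4.51 for RPP21, -3.77 for RPP25L and 1.47 for RPP25. Of the listed genes, RN7SK had -8.53, ELAC1 -4.66, HSD17B10 -1.53, TRMT10C 1.10, SSB 1.73 and RNU6-7 2.46. The change of the log2 ratio of RPPH1 to RMRP differed by -5.25. Every WT library of fractions 7 and 8 had a higher ratio than every WT library of fractions 3 and 4, and the reverse held in D146N. The exact permutation test of the -5.25, over sets of libraries with the same replicate number, gave p = 0.1, the smallest it can give.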

How the results depend on the processing

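RPPH1 and RMRP kept their direction and call in each fraction contrast, each comparison of D146N with WT in 1 fraction and the interaction, under every setting run. On library totals these log2 values changed sign, in the order fractions 3, 4, 7 and 8, WT, D146N and interaction: POP4 -1.91, -2.68, 2.11, 1.65, -1.75, 2.42 and 4.17, POP5 -1.25, -1.45, 1.60, 1.65, -1.22, 1.76 and 2.98, RPP30 -1.85, -1.73, 1.79, 1.61, -1.45, 2.03 and 3.49, and RPP40 -2.38, -2.24, 2.90, 1.88, -2.09, 2.61 and 4.70. RPP38 had -2.20, 2.90, 2.3, -2.28, 2.85 and 5.13 (fraction 4 kept its sign). In WT, D146N and interaction, RPP21 had -0.072, 1.04 and 1.11, RPP25L -0.52, 1.27 and 1.79, HSD17B10 -1.57, 2.45 and 4.02, and ELAC1 -0.25, 0.65 and 0.90. In D146N, POP7 had 0.13, TRMT10C 2.92 and RNU6-7 2.92. In D146N fractions 7 and 8 against WT 3 and 4, RPPH1 had 0.044 and POP4 0.13. Genes called higher and lower became 2 and 7 in fractions 3 and 4, 7 and 2 in fraction 7, 7 and 3 in fraction 8, 3 and 7 in WT, 7 and 2 in D146N and in the interaction. Each comparison of unlike labels then had 1 higher. Over all genes, library totals called 16746 instead of 9398 in fraction 3 and 16655 instead of 9163 in fraction 4. The share of calls that were higher was 4.4%, 4.3%, 93.9%, 93.0%, 8.4%, 95.6% and 93.2% in the order above, against 50.0% to 54.1% for all but WT (46.9%) and D146N (49.7%) after TMM. For D146N fractions 7 and 8 against WT 3 and 4 it was 76.1% instead of 39.9%. For D146N fractions 3 and 4 against WT 7 and 8 it was 58.6%, and 46.9% with median-of-ratios factors, 45.3% with DESeq2 and 44.4% on library totals.

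Without the filter on low counts, POP4 had -0.0090 in fraction 4, POP5 0.012 in D146N fractions 3 and 4 against WT 7 and 8, RPP38 0.14 in fraction 7 and 0.055 in D146N, RPP40 0.13 in fraction 7, and TRMT10C 0.11 and RNU6-7 0.12 in D146N. The counts became 1 lower in fraction 3, 2 higher in fraction 7, 1 higher in fraction 8 and 2 lower in WT. With median-of-ratios factors and with DESeq2, 0 were higher in fraction 7 and 4 lower in D146N fractions 3 and 4 against WT 7 and 8. With unrounded values, and with identical rows dropped, 0 were higher in fraction 7. Same-numbered libraries did not deviate together (correlations of -0.013 to 0.027), so the numbers were not taken as pairs in the main fit. The fit with the replicate block also gave 0 higher in fraction 7, and called HSD17B10 lower in D146N (adjusted p = 0.043).

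With the mean of log2 counts over the 8 mRNAs in place of their sum, the log2 counts of RPPH1 and RMRP per mRNA count were 9.24 and 9.60 in WT fraction 3, 9.18 and 9.47 in fraction 4, 15.79 and 13.70 in fraction 7 and 15.34 and 13.47 in fraction 8. In D146N they were 15.82 and 12.80, 15.92 and 12.98, 9.002 and 9.03, and 9.05 and 8.98.

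Leaving out 1 library at a time gave POP4 -0.12 to 0.20 in fraction 4 and -0.066 to 0.054 in D146N fractions 7 and 8 against WT 3 and 4. In D146N fractions 3 and 4 against WT 7 and 8 it gave POP5 -0.13 to 0.03, RPP14 -0.13 to 0.0023, RPP38 -0.27 to 0.20 and RPP40 -0.20 to 0.13. RPP38 ranged over -0.32 to 0.0081 in fraction 4, -0.22 to 0.22 in fraction 7, -0.62 to 0.31 in fraction 8 and -0.11 to 0.13 in D146N. RPP40 ranged over -0.15 to 0.16 in fraction 7, TRMT10C over -0.092 to 0.20 and RNU6-7 over -0.020 to 0.17 in D146N. The log2 ratio of RPPH1 to RMRP in D146N fraction 7 ranged over -0.050 to 0.011. Counts ranged over 0 to 2 lower in fraction 3, 0 to 1 lower in fraction 4, 0 to 2 higher in fraction 7, 0 to 2 higher in fraction 8, 1 to 2 lower in WT, and 1 to 2 higher and 5 to 6 lower in D146N. Those of D146N fractions 7 and 8 against WT 3 and 4 were 0 to 1 higher and 1 to 2 lower, and those of the reverse 0 to 1 higher and 1 to 4 lower. Such fits also gave POP1 calls that the full fit lacked in 13, 12 and 4 of 24 in fractions 3, 4 and 8, and RPP14 calls in 13 of 24 in fraction 7. The cause of these changes was not tested. Depth limits POP1 and RPP38 most, with as few as 13 and 16 counts in a library.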
